A study of Mus musculus with 12 samples.

Results

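The transcripts described here are those of the adaptor proteins, IRAK kinases and the MAP3 kinase Map3k8 that stand immediately below the Toll-like receptors. They were chosen by name as 10 genes: Myd88, Tirap, Ticam1, Ticam2, Tollip, Irak1, Irak2, Irak3, Irak4 and Map3k8. Of the 18193 genes that at least 1 single-gene probe set of the array measured, 8 belonged to these 10, with 14 probe sets between them. Irak4 and Ticam2 had no probe set assigned to them alone and were not analysed here. Irak1 was represented by 4 probe sets, Tirap, Tollip and Irak3 by 2 each, and Myd88, Ticam1, Irak2 and Map3k8 by 1 each. Each gene was read from its probe set of highest mean signal across the 12 arrays, and the others are given beside it. On GRCm38.p6 the genes lie at chr9:119335934-119340018 (Myd88), chr9:35184391-35200291 (Tirap), chr17:56269462-56276767 (Ticam1), chr7:141881580-141902461 (Tollip), chrX:74013914-74023921 (Irak1), chr6:113638467-113695026 (Irak2), chr10:120141648-120202130 (Irak3) and chr18:4331325-4352953 (Map3k8). None of the 10 lies on chromosome 11, which carries Nos2.

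Toll-like receptors have no enzyme of their own and signal through adaptors that share the TIR fold. TIRAP brings MyD88 to TLR4, the receptor of lipopolysaccharide (LPS), at the plasma membrane, and MyD88 assembles IRAK4 with IRAK1 and IRAK2, which pass the signal to TRAF6; TICAM2 (TRAM) and TICAM1 (TRIF) form the other TLR4 branch, which leads to type I interferon. IRAK3 (IRAK-M), an IRAK with little kinase activity found mainly in monocytes and macrophages, and TOLLIP are known as restraints on the MyD88 branch, and MAP3K8 (TPL2), held by the NF-kB precursor p105 until LPS frees it, drives the MEK to ERK branch in macrophages.

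Expression was measured on 12 Affymetrix mouse oligonucleotide arrays, 3 from each of 4 groups of bone marrow-derived macrophages (BMDM), cells grown from mouse marrow in macrophage colony-stimulating factor. The groups were stimulated Nos2-/-, stimulated WT, untreated Nos2-/- and untreated WT. Nos2-/- mice (B6.129P2-Nos2tm1Lau/J) lack inducible nitric oxide synthase, the main source of nitric oxide in activated macrophages, in all of their cells, and WT mice were C57BL6. Stimulated cells received LPS at 100 ng/mL with interferon γ (IFNγ) at 50 ng/mL for 8 h, and untreated cells are labelled as taken before stimulation, whereas the treatment protocol gives them vehicle. The labels call the 3 arrays of a group biological replicates without saying which mice they came from, so the p-values measure the spread between these arrays. The number of arrays limits the precision of every value, and since the assay is bulk, fewer cells of a kind and less RNA per cell cannot be told apart.

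Array medians lay between 5.14 and 5.21 log2 units and arrays of 1 group correlated at 0.9965 to 0.9986. The Nos2 probe set, whose place relative to the deleted exons is not given in the sources used here, averaged 7.69 ± 0.22 in stimulated Nos2-/-, 9.73 ± 0.09 in stimulated WT, 5.31 ± 0.14 in untreated Nos2-/- and 5.50 ± 0.14 in untreated WT (SD, n = 3 each). All 8 macrophage markers were measured, their log2 summed signal was 16.1 to 16.2 on every array, and 0 of 8 differed between the stimulated genotypes (limma). With stimulation Cd14 and Fcgr1 were called higher, and Adgre1, Cd68, Csf1r, Lyz2 and Mertk lower, in both genotypes. Fcgr1 changed by 1.27 in Nos2-/- and 1.24 in WT, and Cd68 by −0.91 in Nos2-/- and −0.87 in WT. Of 8 neutrophil markers 7 were measured, and their log2 summed signal was 12.88 to 12.94 in stimulated Nos2-/-, 12.52 to 12.58 in stimulated WT, 10.24 to 10.88 in untreated Nos2-/- and 9.96 to 10.55 in untreated WT. S100a8 made up most of the sum in stimulated cells. None of the 7 was called by limma between the stimulated genotypes, where their differences ran from −0.10 for Elane to 0.40 for S100a8 (unadjusted p 0.0315, limma adjusted p = 0.270), and S100a8, Camp and Mpo were called higher with stimulation in both genotypes. All 3 megakaryocyte markers were measured, and their log2 summed signal was 10.9 to 11.2 in stimulated Nos2-/-, 11.2 to 11.5 in stimulated WT, 12.6 to 12.7 in untreated Nos2-/- and 12.6 to 12.8 in untreated WT. Of them Ppbp was lower in stimulated Nos2-/- than in WT (−1.24, limma adjusted p = 0.0105), the 1 marker of all the lists called there, and Pf4 differed by −0.30 (limma adjusted p = 0.134). The neutrophil and megakaryocyte sums moved with both stimulation and genotype, and their part in the results below was not tested.

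The first comparison asked how stimulation changed these transcripts in each genotype. Stimulation raised Irak3, Map3k8, Irak2, Myd88, Tirap and Ticam1 and lowered Irak1 in both Nos2-/- and WT macrophages, and Tollip did not pass the test in either. A gene was called when its Benjamini-Hochberg adjusted p over the 18193 genes, from limma, was below 0.05, with no minimum fold. In Nos2-/- BMDM 6 of the 8 genes were higher and 1 was lower, where 26.3% of all genes were called higher and 28.2% lower. In WT BMDM 6 were higher and 1 was lower, where 29.6% of all genes were called higher and 28.4% lower. The median change over the 8 genes was 0.83 in Nos2-/- and 0.66 in WT on the log2 scale, against 0.05 in Nos2-/- and 0.07 in WT over all genes. With each array centred on its median the share of calls that were higher was 64.9% in Nos2-/- and 64.8% in WT, in place of 48.3% in Nos2-/- and 51.1% in WT.

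**Figure D1:**
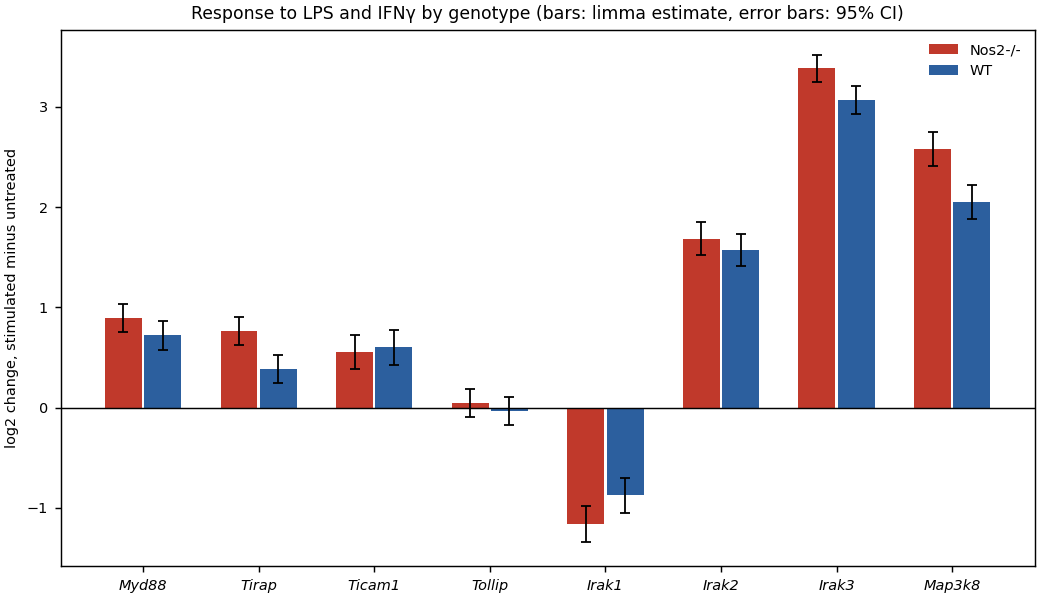
Log2 change of each gene, stimulated minus untreated, in Nos2-/- (red) and WT (blue) BMDM, with bars for the limma estimate and lines for its 95% confidence interval. Irak3 changed most, by 3.39 in Nos2-/- and 3.07 in WT, and Irak1 was the 1 gene that fell.

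Among the adaptors, Myd88, through which all Toll-like receptors except TLR3 can signal, was higher after stimulation in both genotypes. It read 11.75, 11.69 and 11.82 log2 units in the 3 stimulated Nos2-/- arrays, 11.61, 11.51 and 11.59 in stimulated WT, 10.80, 10.85 and 10.92 in untreated Nos2-/- and 10.81, 10.81 and 10.93 in untreated WT. The stimulated arrays of each genotype all lay above the untreated ones, and the lowest stimulated Nos2-/- array lay 0.08 above the highest stimulated WT array. The change with stimulation was 0.90 ± 0.07 (SE) in Nos2-/- (1.86-fold, limma adjusted p = 2.9e-08) and 0.72 ± 0.07 in WT (1.65-fold, limma adjusted p = 3.2e-07). Between the stimulated genotypes the difference of 0.19 (95% CI 0.04 to 0.33) did not pass the test (limma adjusted p = 0.180). The share of all genes whose stimulated genotypes do not overlap was not counted, so non-overlap here and below only describes the arrays.

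Tirap, the sorting adaptor of MyD88, was called higher in Nos2-/- among stimulated cells. The probe set used read 9.43, 9.28 and 9.35 in stimulated Nos2-/-, 9.002, 9.13 and 9.09 in stimulated WT, 8.57, 8.58 and 8.62 in untreated Nos2-/- and 8.68, 8.62 and 8.77 in untreated WT. All stimulated Nos2-/- arrays lay above all stimulated WT arrays, with a gap of 0.15, and the untreated genotypes overlapped. The change with stimulation was 0.77 ± 0.07 in Nos2-/- (1.70-fold, limma adjusted p = 1.6e-07) and 0.39 ± 0.07 in WT (1.31-fold, limma adjusted p = 0.000157). The second probe set read 8.44, 8.35 and 8.43 in stimulated Nos2-/- and 8.04, 8.01 and 8.18 in stimulated WT. Its groups did not overlap either, with a gap of 0.16, and in untreated cells it read 7.53, 7.59 and 7.80 in Nos2-/- and 7.52, 7.58 and 7.66 in WT.

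Ticam1, the adaptor of the interferon branch and of TLR3, changed by 0.56 ± 0.08 in Nos2-/- (1.47-fold, limma adjusted p = 3.3e-05) and by 0.60 ± 0.08 in WT (1.52-fold, limma adjusted p = 1.6e-05). It read 7.17, 7.42 and 7.29 in stimulated Nos2-/-, 7.32, 7.41 and 7.37 in stimulated WT, 6.65, 6.73 and 6.83 in untreated Nos2-/- and 6.77, 6.66 and 6.87 in untreated WT. The genotypes overlapped with and without stimulation, and the difference between stimulated Nos2-/- and stimulated WT was −0.07 (95% CI −0.25 to 0.10). Its 1 probe set carries the suffix that marks probes shared between similar transcripts, so part of its signal can come from elsewhere.

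Tollip, a ubiquitin-binding protein that associates with IRAK1, differed least between groups. The probe set used averaged 9.10 ± 0.06 in stimulated Nos2-/-, 9.09 ± 0.04 in stimulated WT, 9.05 ± 0.09 in untreated Nos2-/- and 9.12 ± 0.03 in untreated WT (SD, n = 3 each), and all 4 groups overlapped. The change with stimulation was 0.05 (95% CI −0.09 to 0.19) in Nos2-/- and −0.03 (95% CI −0.17 to 0.11) in WT, and the WT sign turned under both other scalings. The second probe set, tested among all 34945 single-gene probe sets, changed by 0.17 in Nos2-/- (limma adjusted p = 0.101) and by 0.22 in WT (limma adjusted p = 0.0310), so the 2 Tollip probe sets did not give the same call in WT.

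**Figure D2:**
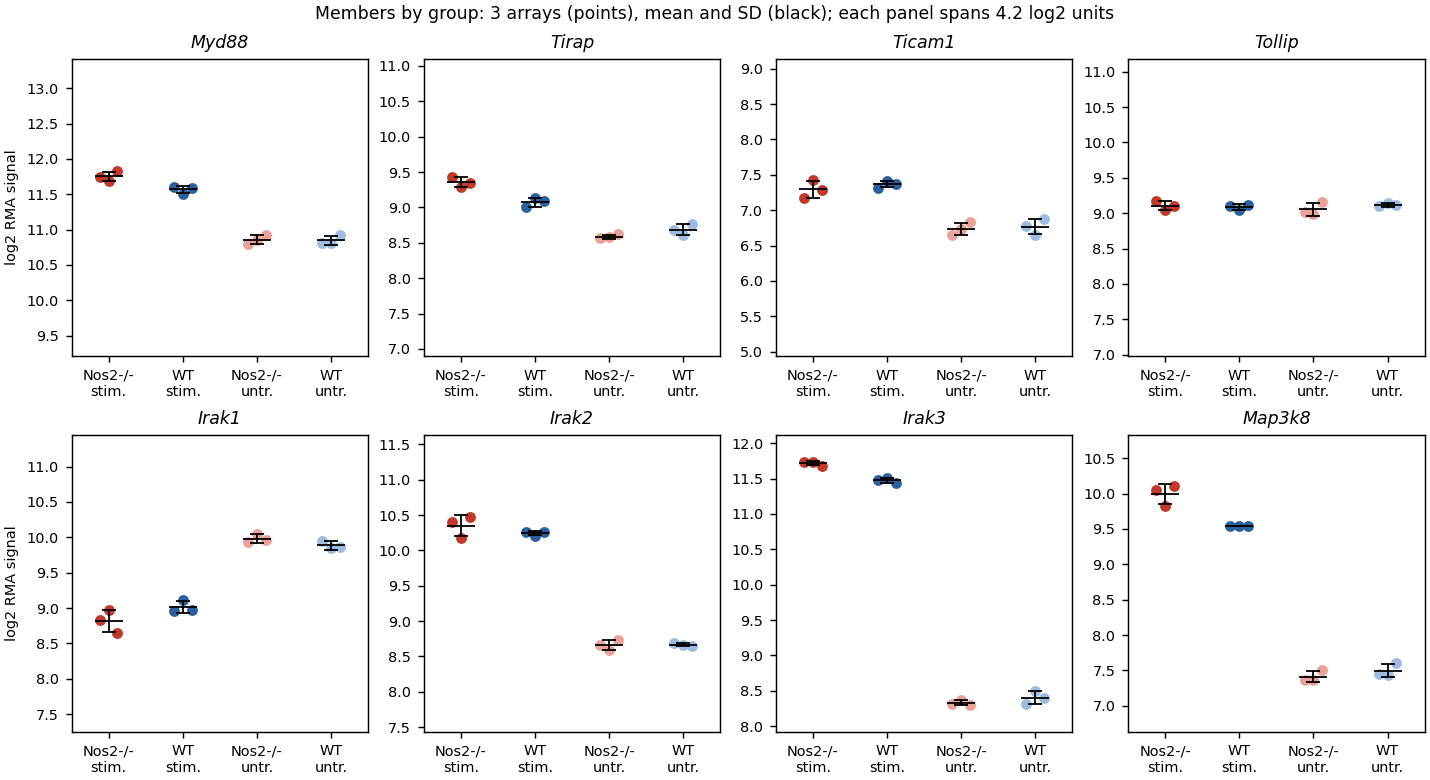
Log2 RMA signal of the probe set used for each of the 8 genes on the 12 arrays, grouped as stimulated Nos2-/-, stimulated WT, untreated Nos2-/- and untreated WT; points are arrays, horizontal lines means and vertical lines SD, and every panel spans the same height. Stimulated Map3k8, Irak3, Tirap and Myd88 points of Nos2-/- lie above those of WT without overlap, and the Tollip groups overlap. The share of all genes without such overlap was not counted.

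Of the 3 IRAK family members measured, Irak2 and Irak3 were higher and Irak1 was lower after stimulation, in both genotypes. Irak1, the kinase that is modified and degraded early after receptor engagement, read 8.83, 8.97 and 8.65 in stimulated Nos2-/-, 8.96, 9.11 and 8.97 in stimulated WT, 9.93, 10.05 and 9.96 in untreated Nos2-/- and 9.95, 9.85 and 9.86 in untreated WT. Every stimulated array lay below every untreated array. The change was −1.16 ± 0.08 in Nos2-/- (2.23-fold lower, limma adjusted p = 1.9e-08) and −0.87 ± 0.08 in WT (1.83-fold lower, limma adjusted p = 4.4e-07). Over the 4 Irak1 probe sets the change ranged over −1.24 to −1.16 in Nos2-/- and −1.16 to −0.87 in WT, and all 4 were called lower in both genotypes. The probe set used carries a shared-probe suffix, so part of its signal can come from elsewhere. In WT the other probe sets changed by −1.13, −1.08 and −1.16. The stimulated genotypes overlapped on every Irak1 probe set, by 0.004 log2 units on the one used, where stimulated Nos2-/- minus stimulated WT was −0.19 (95% CI −0.37 to −0.02, limma adjusted p = 0.275).

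Irak2, the kinase that keeps MyD88 signaling going at later times, read 10.40, 10.18 and 10.47 in stimulated Nos2-/-, 10.26, 10.21 and 10.26 in stimulated WT, 8.66, 8.60 and 8.73 in untreated Nos2-/- and 8.69, 8.66 and 8.65 in untreated WT. The genotypes overlapped in both states, and all stimulated arrays lay more than 1 log2 unit above all untreated arrays. The change was 1.69 ± 0.08 in Nos2-/- (3.22-fold, limma adjusted p = 1.7e-10) and 1.57 ± 0.08 in WT (2.98-fold, limma adjusted p = 3.9e-10). Stimulated Nos2-/- minus stimulated WT was 0.11 (95% CI −0.05 to 0.27).

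Irak3, the inhibitory pseudokinase, changed most of the 8 genes. It read 11.74, 11.73 and 11.68 in stimulated Nos2-/-, 11.48, 11.51 and 11.44 in stimulated WT, 8.31, 8.37 and 8.30 in untreated Nos2-/- and 8.31, 8.50 and 8.40 in untreated WT. Stimulated Nos2-/- lay above stimulated WT without overlap, with a gap of 0.18, and the untreated genotypes overlapped. The change was 3.39 ± 0.06 in Nos2-/- (10.5-fold, limma adjusted p = 3.9e-14) and 3.07 ± 0.06 in WT (8.40-fold, limma adjusted p = 1.1e-13), which placed it 151st in Nos2-/- and 158th in WT of 18193 genes in order of log2 change, from the most raised down. The second probe set read 10.59, 10.45 and 10.44 in stimulated Nos2-/-, 10.33, 10.24 and 10.24 in stimulated WT, 7.06, 7.25 and 7.22 in untreated Nos2-/- and 7.20, 7.26 and 7.31 in untreated WT. It too did not overlap between the stimulated genotypes. The difference of 0.24 (95% CI 0.11 to 0.38) between stimulated Nos2-/- and stimulated WT missed the threshold over all genes (limma adjusted p = 0.0579); over the alternatives tried the adjusted p ran from 0.0131 to 0.219.

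The start-site windows of Irak2 and Irak3 are shown because both genes changed by more than 1 log2 unit in both genotypes (Map3k8, which did so too, is not shown here), and stretches of Myd88 and Irak1 because they hold a motif and the genes moved in opposite directions; the choice of the stretches was made after the values were seen. Sequences are RefSeq's on GRCm38.p6, from 250 bases before to 50 after the annotated start, 5′ to 3′ on the gene's strand. Capitals mark a match on either strand to a kappaB consensus (the NF-kB site, searched by name), to GAAANNGAA (the core of the interferon response element) or to TGANTCA (the AP-1 site). Of all 32851 windows of this length in the table, 8.46% held the kappaB consensus, 8.56% GAAANNGAA and 7.81% TGANTCA, so a match is common and describes the letters alone. The Irak2 window, chr6:113638217-113638516 on the plus strand, held none of the 3. The outer Irak3 window, chr10:120202081-120202380 on the minus strand, held GAAANNGAA read on the opposite strand at −102 to −94, and the inner Irak3 window held none. The Myd88 stretch, from −60 to −20 in chr9:119339969-119340268 on the minus strand, held GAAANNGAA at −40 to −32, and no matches of different motifs overlapped in the sequences printed. The Irak1 stretch, from −40 to 0 in chrX:74023872-74024171 on the minus strand, held a kappaB consensus at −18 to −9.
Irak2: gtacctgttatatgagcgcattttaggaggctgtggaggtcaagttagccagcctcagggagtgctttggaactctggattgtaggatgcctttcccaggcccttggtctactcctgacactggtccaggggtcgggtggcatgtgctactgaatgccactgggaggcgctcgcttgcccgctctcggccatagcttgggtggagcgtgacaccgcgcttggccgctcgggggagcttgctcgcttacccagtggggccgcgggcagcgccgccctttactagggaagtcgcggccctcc
Irak3, outer start: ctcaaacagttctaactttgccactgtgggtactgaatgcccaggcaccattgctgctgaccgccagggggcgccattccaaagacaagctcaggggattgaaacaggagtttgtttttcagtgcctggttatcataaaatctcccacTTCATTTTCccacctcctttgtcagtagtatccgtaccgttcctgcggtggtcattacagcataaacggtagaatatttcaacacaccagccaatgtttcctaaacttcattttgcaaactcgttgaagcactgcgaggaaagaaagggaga
Myd88, −60 to −20: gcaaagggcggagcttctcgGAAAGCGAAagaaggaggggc
Irak1, −40 to 0: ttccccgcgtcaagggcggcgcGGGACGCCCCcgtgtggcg
Irak2 and Irak3, shown for their rise, had no motif of the 3 in common in these windows. The Irak1 stretch was printed because it holds a kappaB match, so that match says nothing about the direction in which Irak1 moved.

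Map3k8, the kinase of the ERK branch, differed most between the stimulated genotypes and had the second largest change with stimulation. It read 10.05, 9.83 and 10.10 in stimulated Nos2-/-, 9.55 on all 3 arrays of stimulated WT, 7.37, 7.37 and 7.50 in untreated Nos2-/- and 7.45, 7.44 and 7.61 in untreated WT. All stimulated Nos2-/- arrays lay above all stimulated WT arrays, with replicate 2 the lowest, and the untreated genotypes overlapped. The 3 stimulated WT values had an SD of 0.0009 (0.15 in stimulated Nos2-/-), and the test used a spread shared over all 4 groups. The change with stimulation was 2.58 ± 0.08 in Nos2-/- (5.98-fold, limma adjusted p = 4.2e-12) and 2.05 ± 0.08 in WT (4.14-fold, limma adjusted p = 4.9e-11).

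The second comparison asked whether loss of Nos2 changed these transcripts in stimulated cells. Map3k8 and Tirap were higher in Nos2-/-, by 1.36-fold and 1.21-fold over WT, and the other 6 genes were not called. Of the 8 genes 2 were thus higher and 0 lower, where 1.03% of all genes were called higher and 1.91% lower, and 5 of the 8 had an unadjusted limma p under 0.05 (besides the 2 called, Irak3 and Myd88 with a positive and Irak1 with a negative difference), as did 15.1% of all genes. On the other Irak1 probe sets the unadjusted limma p was 0.127 to 0.303. The median difference over the 8 genes was 0.15 on the log2 scale, against −0.01 over all genes. Map3k8 differed by 0.45 (95% CI 0.27 to 0.62, limma adjusted p = 0.0064) and stood 110th of 18193 genes in order of log2 difference, from the highest in Nos2-/- down. Tirap differed by 0.28 (95% CI 0.14 to 0.42, limma adjusted p = 0.0349) and stood 424th in the same order. Among all 34945 probe sets, where 1.05% were called higher and 1.54% lower, 3 of the 14 were higher and 0 lower, namely the Map3k8 probe set and both Tirap probe sets, at 0.28 (limma adjusted p = 0.0449) and 0.33 (limma adjusted p = 0.0495).

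The Tirap call rested on the arrays included. It was lost without replicate 1, 2 or 3 of stimulated WT (limma adjusted p = 0.128, 0.0569 and 0.0745), without replicate 1 or 3 of stimulated Nos2-/- (0.104 and 0.0863), without replicate 1 or 2 of untreated Nos2-/- (0.0554 and 0.0560) and without replicate 1 of untreated WT (0.0601), and its difference then lay between 0.24 and 0.31. The Map3k8 call was kept in each of the 12 fits that left out 1 array (limma adjusted p = 0.00204 to 0.0309), and reached 0.0502 when the stimulated arrays were fitted alone.

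**Figure D3:**
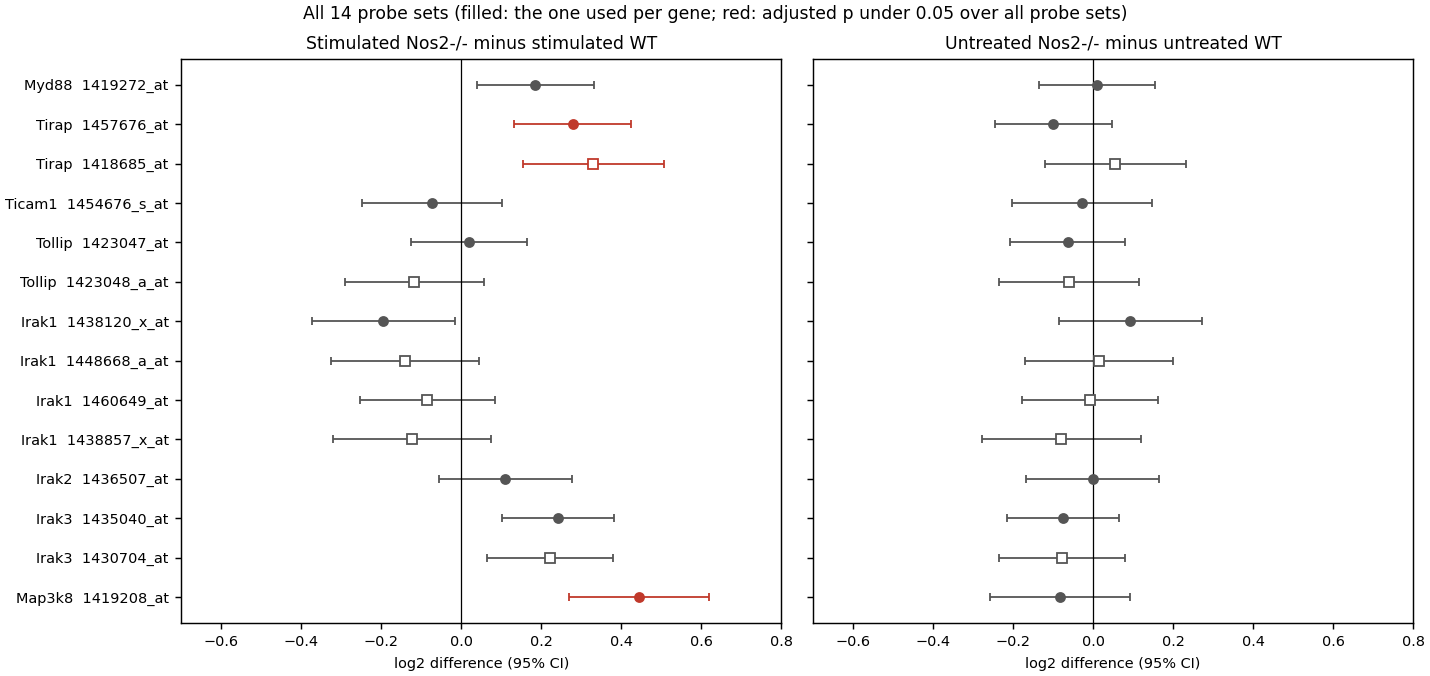
Log2 difference between genotypes for all 14 probe sets, stimulated Nos2-/- minus stimulated WT on the left and untreated Nos2-/- minus untreated WT on the right, with 95% confidence intervals from limma; filled points are the probe sets used per gene and red ones passed the threshold over all probe sets. Map3k8 (0.45) and both Tirap probe sets (0.28 and 0.33) are red on the left, and no probe set is red on the right.

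In untreated cells limma called none of the 8 genes between Nos2-/- and WT, and none had an unadjusted p under 0.05. The differences lay between −0.10 for Tirap and 0.09 for Irak1, with a median of −0.05, and 0.0055% of all genes were called higher and 0.0055% lower. Map3k8 averaged 7.41 ± 0.08 in untreated Nos2-/- and 7.50 ± 0.10 in untreated WT, and Irak3 8.33 ± 0.04 in untreated Nos2-/- and 8.40 ± 0.09 in untreated WT (SD, n = 3 each).

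The third comparison tested the difference between the response of Nos2-/- and that of WT. Only Map3k8 was called: its response was larger in Nos2-/- by 0.53 on the log2 scale (SE 0.11, 95% CI 0.29 to 0.77, limma adjusted p = 0.0453), where 0.302% of all genes were called higher and 0.676% lower. Tirap (0.38, 95% CI 0.18 to 0.58, limma adjusted p = 0.0853), Irak3 (0.32, 95% CI 0.13 to 0.51, limma adjusted p = 0.149) and Irak1 (−0.29, 95% CI −0.54 to −0.04, limma adjusted p = 0.402) had intervals clear of 0 without passing over all genes. With Map3k8, 4 of the 8 genes had an unadjusted limma p under 0.05, as did 10% of all genes. The other Irak1 probe sets had intervals that crossed 0. Their differences were −0.04 (95% CI −0.32 to 0.24), −0.15 (95% CI −0.42 to 0.11) and −0.08 (95% CI −0.32 to 0.16). For Myd88 the difference was 0.18, for Irak2 0.11, for Tollip 0.08 and for Ticam1 −0.04, with limma adjusted p between 0.556 and 0.931. The Map3k8 call stood near the threshold. It was lost without any 1 of the arrays other than replicate 2 of stimulated Nos2-/- (limma adjusted p = 0.0503 to 0.131, difference 0.47 to 0.57), was 0.0106 without that array, and was 0.0540 among all probe sets, where 0.283% were called higher, 0.509% lower and 0 of the 14 either way.

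Among all probe sets the responses themselves gave 8 of the 14 higher and 4 lower in Nos2-/-, where 24.5% were called higher and 26.9% lower, and 9 higher and 4 lower in WT, where 26.5% were called higher and 27.6% lower. The 4 lower probe sets were those of Irak1 in both genotypes.

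The genes whose levels over the 12 arrays were most like those of the 3 genes with the widest range of group means were listed by Pearson correlation, as a description of arrays that fall into a stimulated and an untreated cluster. For Irak3 they were U90926, Agtrap and Sipa1l1 (0.9991 or above). For Map3k8 they were Parp8, the chemokine Ccl7 and Tbc1d9b (0.9985 to 0.9988), and for Irak2 Itprip, the chemokine-binding receptor Ccrl2 and the syntaxin Stx11 (0.9992 to 0.9993).

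Around these genes, 19 of 19 listed components of Toll-like receptor complexes were measured. After stimulation 8 were higher and 6 lower in Nos2-/-, and 5 were higher and 7 lower in WT; here and in the lists that follow, the shares over all genes were 26.3% higher and 28.2% lower in Nos2-/-, and 29.6% higher and 28.4% lower in WT. Tlr3, the receptor of double-stranded RNA, changed by 2.22 in Nos2-/- and 1.79 in WT, and Tlr13, the receptor of bacterial ribosomal RNA, by −2.51 in Nos2-/- and −2.04 in WT. Between the stimulated genotypes 0 were higher and 2 lower in Nos2-/-: the scavenger receptor Cd36 (−0.60, limma adjusted p = 0.0013) and Tlr13 (−0.55, limma adjusted p = 0.00088). For this comparison, here and in the lists that follow, 1.03% of all genes were called higher and 1.91% lower. Of 7 IL-1 family receptors, which share MyD88 and the IRAKs, 6 were measured, and after stimulation 3 were higher and 0 lower in Nos2-/- and 3 were higher and 1 lower in WT. Among them Il1r1 changed by 2.80 in Nos2-/- and 2.59 in WT, and Il1rap, the shared accessory chain, was 0.33 higher in Nos2-/- than in WT once stimulated (limma adjusted p = 0.0172), the 1 call of that list between the stimulated genotypes.

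Of 18 ligases and kinases below the IRAKs 14 were measured, and 10 were higher and 2 lower after stimulation in Nos2-/-, against 8 higher and 2 lower in WT. The ubiquitin ligase Peli1, which acts on IRAKs, changed by 2.06 in Nos2-/- and 1.72 in WT, and its relative Peli2 by −0.86 in Nos2-/- and −1.15 in WT. Between the stimulated genotypes Ikbkg, the regulatory subunit of the IKK complex, was lower in Nos2-/- (−0.31, limma adjusted p = 0.0143), and the other 13 were not called. Of 12 partners and kinases below Map3k8 9 were measured. In both genotypes 6 were higher and 1 lower after stimulation, among them the MAP2 kinase Map2k1, which MAP3K8 phosphorylates (1.09 in Nos2-/-, 1.05 in WT), Tnip2, which binds MAP3K8 and p105 (0.84 in Nos2-/-, 0.70 in WT), and p38α, Mapk14 (−0.90 in Nos2-/-, −0.82 in WT). Between the stimulated genotypes 0 of these 9 were called by limma, where 1.03% of all genes were called higher and 1.91% lower, with 1 higher and 1 lower at an unadjusted p under 0.05 and a median difference of −0.02.

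Of 16 inhibitors of the pathway all were measured, and in each genotype 10 were higher and 1 lower after stimulation. Socs3, which restrains cytokine receptors, changed by 6.93 in Nos2-/- and 6.59 in WT, and Tnfaip3 (A20), a ubiquitin-editing enzyme that acts on TRAF6, by 3.68 in Nos2-/- and 3.26 in WT. Dok2 was the 1 that was lower (−1.34 in Nos2-/-, −1.50 in WT). Of the members known as restraints, Irak3 was higher (3.39 in Nos2-/-, 3.07 in WT) and Tollip was not called (0.05 in Nos2-/-, −0.03 in WT). Between the stimulated genotypes Tnfaip3 was higher in Nos2-/- by 0.36 and the repressor Atf3 was lower, with a log2 difference of −0.60. In the difference of responses Cd36 (−0.61, limma adjusted p = 0.0320) and Atf3 (−0.59, limma adjusted p = 0.0431) were the only calls of the 5 lists. Of all genes 0.302% were called higher and 0.676% lower there. In untreated cells the 5 lists held no call.

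**Figure D4:**
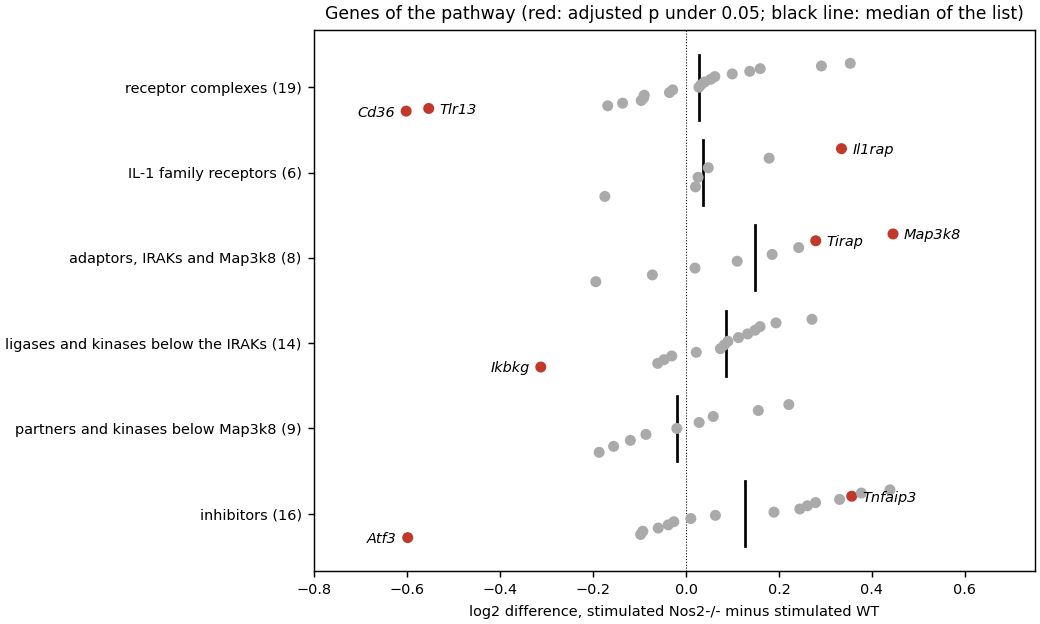
Log2 difference, stimulated Nos2-/- minus stimulated WT, of every measured gene of 5 lists around the 8 genes and of the 8 genes themselves; points are genes, red ones passed the limma test over all genes, and black lines are list medians. Map3k8 (0.45) and Tirap (0.28) lie to the right with Il1rap (0.33) and Tnfaip3 (0.36), and Cd36 (−0.60), Atf3 (−0.60), Tlr13 (−0.55) and Ikbkg (−0.31) to the left.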

How the data were processed

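Total RNA was labelled and hybridised to Affymetrix mouse oligonucleotide arrays, and per the study's methods the authors processed the scans in Partek with RMA (background correction, normalization between arrays and probe summary). The deposited values are log2 signal, 1 table of 45101 probe sets by 12 arrays. RMA makes arrays comparable on the assumption that most genes hold their level, and it compresses differences of dim probe sets. No array date or slide was used here, so batches could not be examined.

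From these values, 64 control probe sets were left out, and 34945 of the other 45037 named 1 gene in the platform annotation, giving 18193 genes (932 named several genes and 9160 none). Symbols of 18032 genes were updated through Entrez identifiers to RefSeq GRCm38.p6. A gene was read from its probe set of highest mean signal. A linear model with a mean for each of the 4 groups was fitted to all genes with limma 3.58.1 in R 4.3.3 (lmFit, contrasts, eBayes), p-values were two-sided and adjusted by Benjamini-Hochberg over all genes, and calls needed an adjusted p under 0.05. The methods name ANOVA with 1.5-fold and FDR under 0.5; those thresholds on the limma p-values and an unmoderated linear model were run as separate alternatives. The pipeline was tested on simulated data.

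All members were described, and from other lists the genes called between the stimulated genotypes were named. Some genes called with stimulation were named too, not always those that changed most. Map2k4 (1.40 in Nos2-/-, 1.14 in WT), Socs1 (3.88 in Nos2-/-, 3.45 in WT) and Ikbke (1.91 in Nos2-/-, 1.67 in WT) changed more than some genes named from their lists. The members and lists were chosen with earlier results of these data known, so counts over them are descriptions. Pearson likeness named 3 genes each for the 3 members with the widest range of group means. Alternatives were other fits, scalings, filters, probe set rules, thresholds, the replicate number as a block, and fits without 1 array. Protein sequences were not used here. The matches of 1 further motif are not reported here.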

Additional observations from a re-analysis of the deposited data

Results flagged for a closer look

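Map3k8 was the 1 gene of the 8 whose response to LPS and IFNγ passed a test of the difference between the genotypes. The response of Nos2-/- minus that of WT was 0.53 on the log2 scale (limma adjusted p = 0.0453), with 2.58 in Nos2-/- and 2.05 in WT, and the 3 stimulated Nos2-/- arrays lay above the 3 stimulated WT arrays. The call was lost in 11 of the 12 fits without 1 array, without moderation, with median centring, and among all probe sets (limma adjusted p = 0.0540).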

How the results depend on the processing

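The 7 calls with stimulation in each genotype and the absence of calls in untreated cells held under every alternative that tested the gene except 1.5-fold with FDR under 0.5, where Ticam1 in Nos2-/- and Tirap in WT dropped out and 6 remained in each. The count of 2 genes between the stimulated genotypes was 0 with only the stimulated arrays fitted, 4 with an intensity trend in limma (Irak3, Map3k8, Myd88 and Tirap), 3 (Irak3 added) without moderation, without genes below the median signal and with the mean of all probe sets, 0 at 1.5-fold with FDR under 0.5, 1 with a replicate block, and 1 to 2 without 1 array. The count of 1 in the difference of responses was 0 without moderation, 3 with the trend (Irak3, Map3k8 and Tirap), 0 with median centring, 3 without genes below the median signal, 0 at 1.5-fold with FDR under 0.5, and 0 to 1 without 1 array. Over 21 alternatives with a test the Map3k8 difference was 0.39 to 0.53 (adjusted p = 0.00132 to 0.0502) and that of Tirap 0.24 to 0.31 (0.0104 to 0.185); over 20 the Map3k8 difference of responses was 0.47 to 0.61 (0.0106 to 0.131). Same-numbered arrays deviated with correlations of −0.26 to 0.211, so the numbers were not taken as pairs; with the replicate block Tirap had an adjusted p of 0.0574 and the Map3k8 difference of responses kept its call at 0.0367. Values near 0, none called, changed sign. Tollip between the stimulated genotypes was −0.0489 with the mean of its probe sets and −0.0125 to 0.0482 without 1 array, and its WT response was 0.0700 with median centring, 0.0768 with quantile normalization and 0.0956 with the mean of probe sets. Between untreated genotypes quantile normalization gave Ticam1 0.000692 and Irak2 0.0205, and without 1 array Myd88 was −0.0217 to 0.0485, Ticam1 −0.0836 to 0.0236 and Irak2 −0.0364 to 0.0315. Ticam1 in the difference of responses was −0.108 to 0.0156 without 1 array. The Tollip response in Nos2-/- became a call at 0.17 with median centring and 0.16 with quantile normalization. Median centring moved the median of all genes by 0.12 in the Nos2-/- response and 0.10 in the WT response; the cause of the changes was not tested. For the difference of responses the arrays compared are all 12, and Ticam1 has no value without probe sets of the shared-probe suffixes. Signals near the array medians limit small differences of dim genes.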
